A study of Mus musculus with 12 samples.

Results

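The comparison described here is between 3T3 cells exposed for 24 h to extracellular vesicles (EVs) from MDA-MB-468 cells that overexpressed CRIPTO (CrOE) and 3T3 cells exposed to EVs from control MDA-MB-468 cells (shCon). It rests on 6 of the 12 libraries of the study, 3 in each of these 2 groups, taken by their column names. 3T3 is a mouse fibroblast line, MDA-MB-468 is a human breast cancer line, and EVs are membrane-bound particles that cells release. CRIPTO is a cell-surface protein that takes part in signalling by the TGF-beta family, and its mouse gene is Tdgf1. The other 6 libraries, 3 of untreated 3T3 cells and 3 of cells given EVs from CRIPTO knockdown cells (shCr), were used to estimate the spread and are quoted where they place a value. All 12 libraries were poly(A)-selected bulk RNA of the same cell line. The labels do not say whether replicates were separate cultures, so p-values measure the spread between these samples, which may be technical. A control donor line made with the overexpression construct was not analysed here, nor was the amount of EVs given. The columns used for the CrOE samples carry the protein's name alone, and were matched to them because the other 3 column names each fit another group.

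Secreted and membrane proteins fold in the endoplasmic reticulum (ER), and when unfolded protein builds up there, the sensors ATF6, IRE1 and PERK raise the genes of ER chaperones and, through ATF4, of amino acid supply. This is the unfolded protein response, which a fibroblast needs in order to secrete collagen. Interferon signalling runs through STAT2 and IRF9, among others, to antiviral genes and to genes of MHC class I presentation, and many cells keep a low tonic level of it. Sterol synthesis is governed by SREBP2, which leaves the ER only when sterols are low.

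The 3T3 cells given CrOE EVs had far more ER chaperone mRNA than those given shCon EVs, and less mRNA of interferon-stimulated genes, extracellular matrix and sterol synthesis. Of 14279 genes tested, 10373 were called at an adjusted p under 0.05 by edgeR's quasi-likelihood test, which is 72.6% of them. Higher genes made up 36.5% and lower genes 36.1% of those tested. With at least a 2-fold change 3884 genes were called (27.2%), 1329 higher (9.31%) and 2555 lower (17.9%). With at least a 4-fold change, 292 genes were higher and 1131 lower. The median log2 fold change over all genes tested was 0.0075 and the median size was 0.567, so a count of calls alone says little here, and the count of each list below stands beside the share of all genes called the same way. In 80.5% of the genes tested, either way, no CrOE EV library overlapped a shCon EV library, so a lack of overlap describes a gene and sets it apart from few others. Bulk RNA cannot tell a lower level in every cell from fewer cells that express a gene.

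Library totals were 27811383 to 30177901 estimated counts after shCon EVs and 31389839 to 35490290 after CrOE EVs. Libraries of the same group correlated at 0.9934 to 0.9943 (Pearson's r of log2 CPM across genes, which are not independent replicates), and libraries of the different groups at 0.9152 to 0.9211. CPM are a gene's counts scaled to the same library total, here after TMM scaling. Mitochondrial genes held 1.35% to 1.64% of counts after shCon EVs and 0.693% to 1.44% after CrOE EVs, and the part of that spread in the results was not tested. The 10 most abundant genes held 5.41% to 5.46% and 6.66% to 6.75%. Tdgf1 itself had at most 2 counts in each of these 6 libraries, at or under the detection floor of 3 counts, so no difference in the recipient cells' own gene was detectable at this depth. CRIPTO in the donor cells and EVs was not analysed here.

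The promoters of ER chaperone genes often carry the ER stress response element, at which ATF6 and XBP1 act with NF-Y. It was searched as CCAAT, any 9 bases, CCACG on both strands in the 250 bases before each RefSeq start (GRCm38.p6). Of the 22 genes in the ER folding list, 19 had a promoter in the RefSeq table, and 8 of these 19 (42.1%) held it. Among all 27025 genes with a promoter 35 did (0.13%), and of all 32851 promoters 0.113%. The 8 are shown because they held the element, in a list whose 22 genes were all called higher. Capitals mark the element. A match running along the other strand reads CGTGG first and ATTGG last.
Hspa5 (chr2:34772005-34772063, + strand): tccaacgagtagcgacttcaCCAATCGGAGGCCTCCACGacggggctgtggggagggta
Hsp90b1 (chr10:86705513-86705676, - strand): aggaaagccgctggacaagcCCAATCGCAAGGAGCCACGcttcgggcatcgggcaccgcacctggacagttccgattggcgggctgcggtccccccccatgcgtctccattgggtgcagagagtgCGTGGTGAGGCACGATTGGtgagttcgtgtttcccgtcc
Calr (chr8:84847055-84847113, - strand): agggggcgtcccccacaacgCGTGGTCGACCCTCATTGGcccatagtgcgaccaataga
Pdia6 (chr12:17266471-17266529, + strand): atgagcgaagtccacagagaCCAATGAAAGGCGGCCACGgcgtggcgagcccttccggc
Canx (chr11:50325780-50325838, - strand): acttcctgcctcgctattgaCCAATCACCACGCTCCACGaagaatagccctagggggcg
Dnajc3 (chr14:118937807-118937865, + strand): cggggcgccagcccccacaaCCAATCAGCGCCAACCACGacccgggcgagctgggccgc
Creld2 (chr15:88819500-88819558, + strand): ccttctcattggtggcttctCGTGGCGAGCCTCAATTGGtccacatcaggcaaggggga
Syvn1 (chr19:6046512-6046570, + strand): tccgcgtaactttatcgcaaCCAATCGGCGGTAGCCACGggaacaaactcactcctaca
In Hspa5 the element lay 47 to 65 bases before the start, in Syvn1 26 to 44 and in Creld2 108 to 126. Hsp90b1 held a copy on each strand. Sdf2l1 and Pdia4 had no match in this window, and Hyou1 and Manf had no promoter in the table. A match is a description of these letters, and binding was not measured.

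All 22 ER folding genes were called higher after CrOE EVs, beside 36.5% of all genes, and all 22 by at least 2-fold, beside 9.31%. Their median log2 fold change was 2.71, and the smallest was 1.07. Summed over the list, they took 5859 to 5976 CPM after shCon EVs and 44060 to 46410 CPM after CrOE EVs. The untreated libraries held 6593 to 6954 CPM and the shCr EV libraries 5427 to 6198 CPM, so the CrOE EV libraries stood apart from the other 9.

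Hspa5, which encodes the main ER chaperone BiP, was at 611, 602 and 599 CPM after shCon EVs and 11701, 12092 and 11400 CPM after CrOE EVs. The groups do not overlap, and the mean was 19.4-fold higher after CrOE EVs (log2 fold change 4.28, SE 0.075, adjusted p = 1.6e-13, edgeR). Hsp90b1, which encodes the ER form of HSP90, was at 600.5, 599 and 585 CPM after shCon EVs and 7329, 7766 and 7397 CPM after CrOE EVs, 12.6-fold higher. Hyou1, an exchange factor for BiP, was at 142, 147 and 146 CPM after shCon EVs and 3055, 3172 and 3032 CPM after CrOE EVs, 21.3-fold higher. These were among the 5 most abundant of all genes that rose at least 2-fold, together with Calr (975 ± 27.1 to 5456 ± 149 CPM, SD, n = 3) and Pdia3 (620.0 ± 17.2 to 3223 ± 109 CPM), a lectin chaperone and a disulfide isomerase of glycoprotein folding.

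Sdf2l1, an ER partner of BiP's J-domain helpers, had the largest rise of the list. It was at 12.3, 10.9 and 11.9 CPM after shCon EVs and 372, 400.1 and 373 CPM after CrOE EVs (log2 fold change 5.03, SE 0.12, adjusted p = 2.1e-12, edgeR). Creld2, a secreted ER stress protein, was at 32.9, 31.4 and 34.1 CPM after shCon EVs and 606, 633 and 607 CPM after CrOE EVs. Manf, an ER stress-induced neurotrophic factor, was at 70.3, 64.01 and 69.2 CPM after shCon EVs and 975, 1024 and 954 CPM after CrOE EVs, and Pdia4, another disulfide isomerase, was 15.4-fold higher. Ero1lb, an ER oxidase outside the list, went from 5.65 ± 0.202 to 84.2 ± 3.17 CPM. It was among the 12 largest rises under the naming rule below, in genes whose log2 CPM averaged 3 or more.

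The genes of the sensors ATF6 and IRE1 and of the transcription factor XBP1 rose as well. The gene of PERK was not in the list. Xbp1, the target of IRE1 splicing, rose 3.20-fold, from 57.8 ± 3.11 to 185 ± 4.29 CPM (SD, n = 3). Atf6 rose 2.78-fold and Ern1, which encodes IRE1, 2.47-fold; both were picked after their values were seen. Dnajb9, a J-domain protein raised through XBP1, went from 17.00 ± 1.15 to 156 ± 6.47 CPM, and Herpud1, which serves ER-associated degradation and was also picked afterwards, from 102 ± 0.286 to 795 ± 8.07 CPM. Splicing of Xbp1 cannot be read from counts per gene.

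The shCon EV level of this list lay close to that of untreated cells. Against untreated cells the list's median log2 fold change was -0.11 after shCon EVs, with 5 genes called higher and 7 lower, beside 18.0% and 20.2% of all genes. After CrOE EVs it was 2.67, with all 22 called higher, beside 36.7% of all genes. Both comparisons use the same untreated libraries. Hspa5 stood at 658 ± 14.3 CPM in untreated cells and 626 ± 68.6 CPM after shCr EVs (SD, n = 3).

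**Figure D1:**
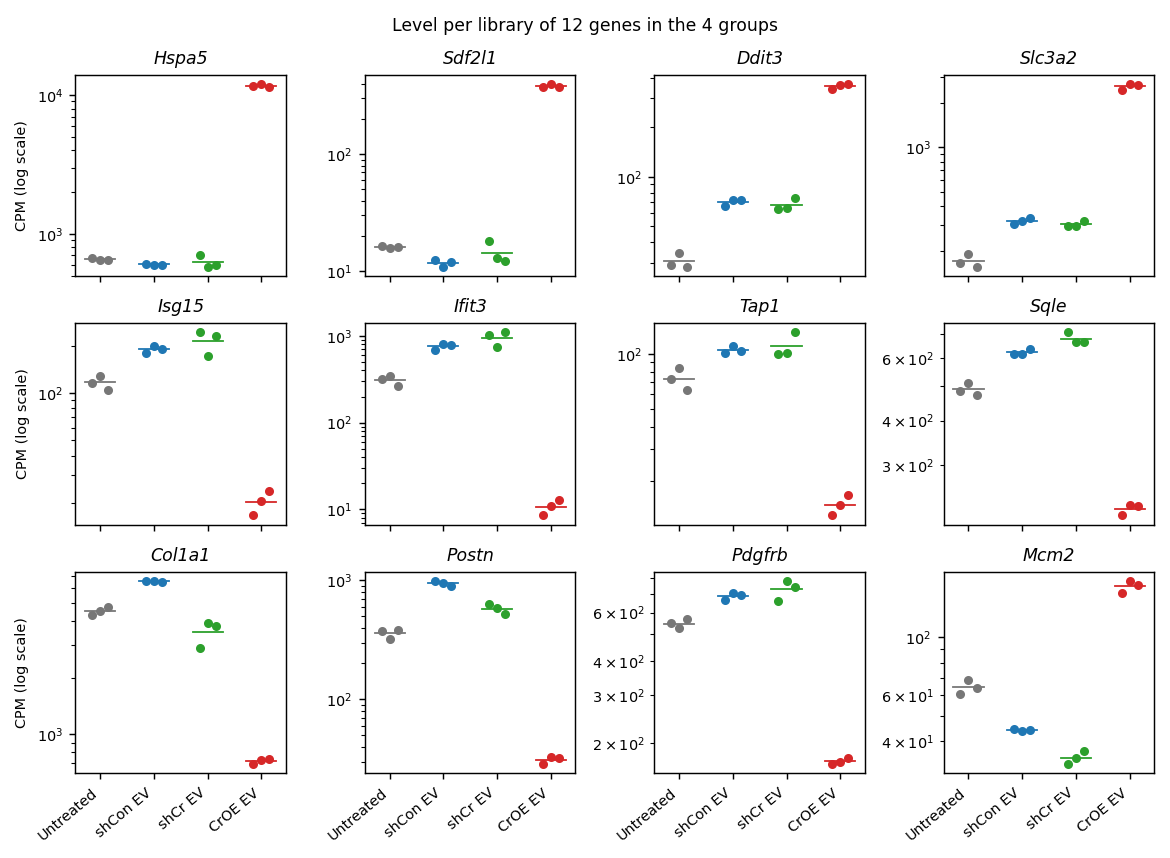
Level of 12 genes in each library of the 4 groups, in CPM on a log axis that differs between panels; points are libraries and lines are group means (n = 3). Hspa5, Sdf2l1, Ddit3, Slc3a2 and Mcm2 are highest in all 3 CrOE EV libraries (Hspa5 at 11400 CPM or more), and Isg15, Ifit3, Tap1, Sqle, Col1a1, Postn and Pdgfrb are lowest there.

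The ATF4 list, which covers the integrated stress response and amino acid supply, was also mostly higher. Of 24 genes, 20 were called higher (83.3%, beside 36.5% of all genes) and 1 lower, 12 higher by at least 2-fold, and the median log2 fold change was 1.05. Ddit3, which encodes the stress factor CHOP, was at 66.7, 72.3 and 72.7 CPM after shCon EVs and 341, 359.6 and 368 CPM after CrOE EVs (log2 fold change 2.33, SE 0.082, adjusted p = 4.6e-11, edgeR). Slc3a2, a subunit of amino acid transporters, was at 305, 317 and 333 CPM after shCon EVs and 2450.1, 2693 and 2656 CPM after CrOE EVs, 8.17-fold higher. Ppp1r15a, which encodes the eIF2 phosphatase subunit GADD34, was at 45.9, 46.3 and 45.9 CPM after shCon EVs and 472, 498 and 494 CPM after CrOE EVs, 10.6-fold higher. The libraries of these 3 genes lie apart by group, as do those of 80.5% of all genes tested. Atf3, a stress-induced transcription factor, went from 14.8 ± 0.311 to 144 ± 10.7 CPM, and Trib3, a pseudokinase target of CHOP, from 90.4 ± 2.28 to 309.6 ± 9.50 CPM.

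Some other genes of the list moved less or fell. Asns, which makes asparagine, was only 1.53-fold higher, from 212 ± 4.46 to 325 ± 2.78 CPM. Atf5 was the 1 gene called lower (473 ± 22.4 to 325 ± 12.7 CPM), and Atf4 itself rose 1.62-fold; these last 2 were named after their values were seen. This list stood higher than in untreated cells in both EV groups: its median against them was 0.81 after shCon EVs and 1.82 after CrOE EVs. Ddit3 was at 30.7 ± 3.34 CPM in untreated cells, and the shCon EV level of 70.6 ± 3.33 lay between that and 356 ± 13.8 after CrOE EVs.

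The element that ATF4 binds with C/EBP partners was searched as TGATGNAA on both strands of the same 250 bases. It was held by 7 of the 23 listed genes with a promoter (30.4%) and by 3 of 12 synthetase genes (25%), against 3.91% of all genes and 3.45% of all promoters. The 4 below belong to a transcription factor, a transporter, a glutathione-degrading enzyme and asparagine synthetase. Capitals mark the element, which reads TTNCATCA where it lies on the other strand.
Atf3 (chr1:191183416-191183463, - strand): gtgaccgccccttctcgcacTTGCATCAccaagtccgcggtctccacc
Slc7a11 (chr3:50443633-50443699, - strand): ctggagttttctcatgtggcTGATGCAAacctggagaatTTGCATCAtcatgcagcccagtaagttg
Chac1 (chr2:119351029-119351076, + strand): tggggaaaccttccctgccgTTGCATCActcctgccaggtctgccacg
Asns (chr6:7693210-7693252, - strand): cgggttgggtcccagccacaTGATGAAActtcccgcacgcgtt
Their genes rose by unequal factors: Atf3 9.76-fold, Slc7a11, the cystine transporter, 4.97-fold, Chac1 2.35-fold and Asns 1.53-fold. Chac1 is named here for its promoter.

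The cytosolic aminoacyl-tRNA synthetases, which charge tRNAs and include ATF4 targets, were higher in 18 of 20 cases (90%, beside 36.5% of all genes) and lower in 1, with a median log2 fold change of 0.88 and 6 at least 2-fold higher. Wars, the tryptophan enzyme, was at 73.4, 72.4 and 78.2 CPM after shCon EVs and 342, 363 and 346 CPM after CrOE EVs, 4.69-fold higher. The next largest rises were those of Vars, Farsb and Iars at 2.49-, 2.30- and 2.19-fold. Ribosomal protein genes were called higher in 27 of 32 cases (84.4%, beside 36.5% of all genes), none by 2-fold, with a median log2 fold change of 0.53. Rplp0, of the large subunit's stalk, went from 2127 ± 11.5 to 3407 ± 158 CPM. Many ribosomal protein genes share sequence with processed copies (42.8% of the 31-base stretches of Rplp0 occur in another gene), so their counts are uncertain. Rpl11 was the 1 ribosomal gene called lower, named after its value was seen, and that call was lost whenever any 1 of the 6 libraries was left out.

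The heat-shock list, of chaperones outside the ER, had 9 genes higher and 4 lower of 15 (60% and 26.7%, beside 36.5% and 36.1% of all genes), 2 and 3 of them by at least 2-fold, with a median log2 fold change of 0.19. Hspa1a, the inducible cytosolic HSP70, was at 22.7, 24.2 and 26.9 CPM after shCon EVs and 11.6, 10.1 and 12.2 CPM after CrOE EVs. All its CrOE EV libraries were below all shCon EV libraries (log2 fold change -1.12, SE 0.14, adjusted p = 8.5e-06, edgeR). Hspa1b and Hspb1 fell by 1.04 and 1.12 on the log2 scale. Of their 31-base stretches, 65.4% in Hspa1a, 68.0% in Hspa1b and 52.3% in Hspb1 occur in another gene, so these counts are uncertain. Hspd1, the mitochondrial HSP60, rose from 308 ± 5.81 to 703 ± 15.9 CPM, and 50.1% of its stretches are shared.

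The list of ER calcium pumps, channels and store sensors had 5 genes higher and 6 lower of 14 tested (35.7% and 42.9%), near the shares of 36.5% and 36.1% over all genes, with a median log2 fold change of -0.30. Of its pumps, which load calcium into the ER, 2 rose. Atp2a2, the SERCA2 pump, was at 404, 407 and 400.2 CPM after shCon EVs and 1261, 1279 and 1194 CPM after CrOE EVs, 3.08-fold higher. Atp2a3, the SERCA3 pump, was at 2.65, 2.86 and 2.67 CPM after shCon EVs and 27.2, 27.5 and 28.5 CPM after CrOE EVs, 10.2-fold higher, and it was at 0.111 ± 0.0729 CPM in untreated cells. The sensors of emptied stores, Stim1 and Stim2, fell by 0.89 and 1.40 on the log2 scale.

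The largest rise under the naming rule below, in genes whose log2 CPM averaged 3 or more, was outside these groups. Car6, a secreted carbonic anhydrase, was at 0.286, 0.531 and 0.180 CPM after shCon EVs and 55.2, 60.6 and 51.6 CPM after CrOE EVs, which is 163-fold (log2 fold change 7.35, SE 0.21, adjusted p = 7.7e-12, edgeR). Its shCon EV libraries held 8, 16 and 5 counts, so the fold is less firm than the level reached. Among the carbonic anhydrases it stood alone in size: of 9 tested, 4 were higher and 3 lower (44.4% and 33.3%, near the shares over all genes), and Car5b and Car13 fell by 2.19 and 1.30 on the log2 scale. Sspo, a secreted thrombospondin-repeat protein, was at 0.751, 0.896 and 1.37 CPM after shCon EVs and 39.7, 39.6 and 44.7 CPM after CrOE EVs. Avil, an actin-binding protein, was 20.8-fold higher and Recql4, a DNA helicase, 13.2-fold. Exons of Avil and Recql4 overlap genes on the opposite strand, and whether reads were counted by strand is not given in the sources used here. The same holds for Hsp90b1, Manf, Pdia3, Dnajb9, Ddit3, Ppp1r15a and Atp2a2 above.

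The other end of the comparison was led by interferon-stimulated genes. All 27 of the list were called lower after CrOE EVs, beside 36.1% of all genes, and all 27 by at least 2-fold, beside 17.9%. The median log2 fold change was -3.61, a 12.2-fold lower level, and values ran from -6.32 to -1.56. Summed CPM of the list were 5066 to 5560 after shCon EVs, 477 to 626 after CrOE EVs, 3002 to 3399 in untreated cells and 4892 to 6658 after shCr EVs. The highest CrOE EV sum was thus below the lowest sum of each other group.

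Promoters of such genes often hold the interferon-stimulated response element, bound by a complex that holds STAT2 and IRF9. It was searched as GAAA, any 2 bases, GAAA on both strands of the same 250 bases. Of the 27 genes 19 had a promoter, and 9 of these (47.4%) held it, against 3.46% of all genes with a promoter and 2.98% of all promoters. In the MHC class I list 2 of 11 did (18.2%), B2m and H2-T23. The 6 below belong to genes whose levels follow, with the element in capitals, and TTTC first where it lies on the other strand.
Ifit1 (chr19:34640765-34640833, + strand): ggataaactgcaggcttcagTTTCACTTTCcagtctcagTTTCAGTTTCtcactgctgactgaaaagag
Ifit3 (chr19:34583353-34583436, + strand): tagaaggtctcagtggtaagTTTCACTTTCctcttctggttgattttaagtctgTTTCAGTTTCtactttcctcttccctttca
Isg15 (chr4:156200855-156200916, - strand): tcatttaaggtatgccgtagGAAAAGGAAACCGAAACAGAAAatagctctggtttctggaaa
Gbp2 (chr3:142620584-142620633, + strand): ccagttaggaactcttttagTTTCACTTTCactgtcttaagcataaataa
Oas1a (chr5:120907526-120907565, - strand): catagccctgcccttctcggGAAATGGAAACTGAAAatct
B2m (chr2:122147528-122147577, + strand): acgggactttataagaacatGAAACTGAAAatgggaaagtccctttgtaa
Ifit1 and Ifit3 each held 2 separate copies, Oas1a 2 that overlap and Isg15 3 that overlap.

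Ifit3, an antiviral RNA-response gene, was at 697, 799 and 782 CPM after shCon EVs and 8.50, 10.97 and 12.7 CPM after CrOE EVs. Every CrOE EV library was below every shCon EV library, 70.7-fold in the mean (log2 fold change -6.14, SE 0.19, adjusted p = 1.6e-11, edgeR). Oas2, which senses double-stranded RNA, was at 50.4, 57.4 and 56.1 CPM after shCon EVs and 0.539, 0.611 and 0.870 CPM after CrOE EVs, 80.02-fold lower, with 17, 21 and 31 counts behind the CrOE EV values. The size of the fall thus differed widely within the list. Ifit1 went from 403 ± 23.8 to 28.8 ± 2.30 CPM (SD, n = 3), Isg15, a ubiquitin-like modifier, from 190.3 ± 9.59 to 20.3 ± 3.52 CPM, and Gbp2, a guanylate-binding protein, from 106 ± 4.67 to 3.20 ± 0.387 CPM. Zbp1, a sensor of Z-form nucleic acid, was 58.5-fold lower. Oas1a, named for its promoter, went from 73.7 ± 3.69 to 4.95 ± 1.47 CPM. Irf9, the partner of STAT2, had the smallest fall, 2.94-fold, and was named after its value was seen. Ifit3 shares 61.8% of its 31-base stretches with another gene, so reads could be split between copies; Ifit3b, a near copy of Ifit3, fell as well, from 222 ± 12.05 to 2.59 ± 0.227 CPM.

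Iigp1, an interferon-induced GTPase outside the list, was among the 12 largest falls under the naming rule below, in genes whose log2 CPM averaged 3 or more. It was at 75.2, 77.4 and 72.02 CPM after shCon EVs and 0.666, 0.815 and 0.786 CPM after CrOE EVs. Relative to untreated cells the 2 EV groups stood on opposite sides. The list's median was 0.73 after shCon EVs, with 26 of 27 genes called higher, beside 18.0% of all genes. It was -2.90 after CrOE EVs, with all 27 called lower, beside 37.0% of all genes. Ifit3 was at 308 ± 41.01 CPM in untreated cells, under its shCon EV level and over its CrOE EV level.

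MHC class I presentation fell with them. All 13 genes were called lower, beside 36.1% of all genes, 12 by at least 2-fold, with a median log2 fold change of -2.34. Tap1, which pumps peptides into the ER, was at 102, 110.2 and 104 CPM after shCon EVs and 13.00, 14.9 and 16.9 CPM after CrOE EVs (log2 fold change -2.82, SE 0.14, adjusted p = 8.6e-10, edgeR). Psmb8, a subunit of the immunoproteasome, was at 27.8, 30.8 and 28.9 CPM after shCon EVs and 1.78, 2.53 and 2.16 CPM after CrOE EVs, and Psmb9, its neighbour gene, at 11.4, 10.8 and 10.2 CPM after shCon EVs and 0.0634, 0.378 and 0.168 CPM after CrOE EVs. The CrOE EV libraries held 2, 13 and 6 counts of Psmb9, so its fall is large but its size is not firm. B2m, the light chain of all class I molecules, fell only 2.32-fold, from 1421 ± 27.1 to 614 ± 56.8 CPM. H2-D1, a classical heavy chain, was the 1 gene under 2-fold (615 ± 21.4 to 369 ± 43.3 CPM; named after its value was seen). H2-Q4 and H2-T23 share over 20% of their 31-base stretches with other genes, and Tap1, Psmb8, Psmb9 and H2-Q4 overlap exons on the opposite strand.

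**Figure D2:**
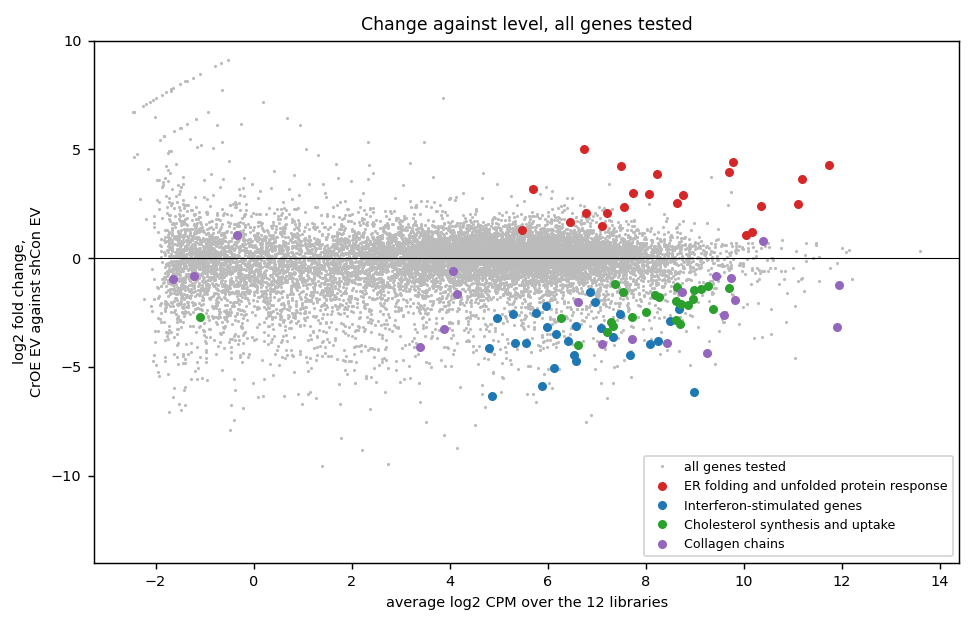
Log2 fold change of CrOE EV against shCon EV (vertical) by the average log2 CPM over the 12 libraries (horizontal) for 14279 genes, with 4 gene lists coloured; diagonal lines of points at the left are genes at 0 counts in a group. The ER folding genes all lie above 1, and the interferon-stimulated and cholesterol genes all lie below -1.

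The secreted matrix was mostly lower. Of 20 collagen chain genes tested, 17 were lower (85%, beside 36.1% of all genes) and 2 higher, 13 and 1 by at least 2-fold, with a median log2 fold change of -1.80. Summed collagen CPM were 19360 to 19740 after shCon EVs and 6939 to 7249 after CrOE EVs. Col1a1, the main chain of type I collagen, was at 6590.5, 6565 and 6516 CPM after shCon EVs and 694, 732 and 737 CPM after CrOE EVs. Its partner Col1a2 was at 5181, 5266 and 5162 CPM after shCon EVs and 2201, 2277 and 2209 CPM after CrOE EVs. The chains of this heterotrimer fell unequally, 9.09-fold and 2.33-fold. Col6a1 of the microfibril collagen VI was at 716, 719 and 744 CPM after shCon EVs and 34.00, 33.5 and 38.8 CPM after CrOE EVs, the largest fall of the list (log2 fold change -4.36, SE 0.10, adjusted p = 1.7e-12, edgeR). Col3a1, of reticular fibres, went from 1304 ± 28.4 to 338 ± 13.8 CPM, and Col4a1, of basement membranes, from 974 ± 24.4 to 515 ± 11.2 CPM. Against this, Col5a2 rose from 1337 ± 13.6 to 2343 ± 119 CPM, and Col14a1 rose from 0.648 ± 0.159 to 1.38 ± 0.370 CPM; these 2 were named after their values were seen. Leaving out 1 library at a time left 1 or 2 collagen genes called higher.

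Of 17 tested genes for enzymes and chaperones that fold and join collagen, 5 were higher and 10 lower (29.4% and 58.8%, beside 36.5% and 36.1% of all genes), with a median log2 fold change of -0.70. Serpinh1, the collagen chaperone of the ER, rose from 1072 ± 8.45 to 1514 ± 54.6 CPM, and P4ha1, a prolyl hydroxylase of the ER, was 1.20-fold higher. Pcolce, which helps to trim procollagen outside the cell, was at 917, 948 and 955 CPM after shCon EVs and 118, 125 and 127 CPM after CrOE EVs. Lox, the extracellular enzyme that starts cross-links, was at 2768, 2632 and 2577 CPM after shCon EVs and 831, 911 and 877 CPM after CrOE EVs. Both fell in all 3 libraries below all shCon EV libraries, 7.63-fold and 3.05-fold. Adamts2 and Loxl3 fell by 2.41 and 2.62 on the log2 scale.

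Among 27 other matrix genes, 25 were lower (92.6%, beside 36.1% of all genes) and 1 higher, 21 lower by at least 2-fold, and the median log2 fold change was -2.72. Postn, the matricellular protein periostin, was at 988, 953 and 895 CPM after shCon EVs and 28.7, 32.7 and 32.2 CPM after CrOE EVs. Thbs2, a thrombospondin, was at 2266, 2339 and 2310.5 CPM after shCon EVs and 86.7, 102 and 100.5 CPM after CrOE EVs. These were 30.3-fold and 23.9-fold lower. Dcn, the proteoglycan decorin, went from 369 ± 17.6 to 50.4 ± 6.18 CPM, and Bgn, its relative biglycan, from 3726 ± 58.8 to 1779.7 ± 123 CPM. Lum, another proteoglycan, was at 4.37, 3.98 and 4.40 CPM after shCon EVs and at the floor after CrOE EVs with 0, 1 and 0 counts, at least 47.8-fold lower. Prelp had 0, 0 and 4 counts after CrOE EVs against 11.6, 12.6 and 12.8 CPM after shCon EVs, so its fitted log2 fold change of -8.15 rests on 1 library. Dpt, a collagen-binding matrix protein outside the list, was at 44.6, 44.2 and 42.5 CPM after shCon EVs and 0.222, 0.233 and 0.168 CPM after CrOE EVs. Vcan, a large proteoglycan, was the 1 gene that rose (338 ± 12.7 to 519.6 ± 54.95 CPM; named after its value was seen).

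Proteases that cut matrix and the inhibitors that hold them back were mostly lower. Of 19 genes 17 were lower (89.5%, beside 36.1% of all genes) and 2 higher, with a median log2 fold change of -1.85. Mmp2, a gelatinase, was at 2219, 2266 and 2260.1 CPM after shCon EVs and 172, 189.7 and 188 CPM after CrOE EVs (log2 fold change -3.62, SE 0.057, adjusted p = 9.2e-14, edgeR). Its inhibitor Timp2, picked as its partner after the values were seen, was at 1198, 1182 and 1184 CPM after shCon EVs and 139, 150.3 and 143 CPM after CrOE EVs. Mmp2 fell 12.3-fold and Timp2 8.24-fold. Mmp3, a stromelysin, went from 115 ± 6.52 to 22.3 ± 2.05 CPM, Timp1 from 91.6 ± 2.02 to 40.9 ± 1.78 CPM, and Plau, the urokinase, was 9.02-fold lower. Plaur, the urokinase receptor, was among the 2 that rose, 2.34-fold, and was named after its value was seen.

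Of 20 contractile genes of myofibroblasts tested, 12 were lower (60%, beside 36.1% of all genes) and 3 higher, 5 lower by 2-fold or more, with a median log2 fold change of -0.42. Acta2, smooth muscle actin, was at 619.5, 625 and 651 CPM after shCon EVs and 491, 502 and 526 CPM after CrOE EVs, a fall of 1.25-fold. Myl9, a myosin light chain, went from 28.6 ± 1.02 to 11.9 ± 0.814 CPM, and Tpm2, a tropomyosin, fell by 0.70 on the log2 scale. Cnn1, which marks differentiated contractile cells, was at 0.286, 0.266 and 0.180 CPM after shCon EVs and 0.222, 0.582 and 0.393 CPM after CrOE EVs and was no call (adjusted p = 0.121, edgeR), and its libraries overlap.

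Sterol synthesis was lower at every step listed. All 24 genes were called lower, beside 36.1% of all genes, and all by at least 2-fold, with a median log2 fold change of -2.14 and values from -3.98 to -1.18. Sqle, the squalene epoxidase, was at 617, 615 and 634 CPM after shCon EVs and 216, 231 and 229 CPM after CrOE EVs. Its groups do not overlap, and it fell 2.76-fold (log2 fold change -1.46, SE 0.051, adjusted p = 4.4e-11, edgeR). Later steps fell further: Tm7sf2 15.7-fold, Dhcr7 10.4-fold, and Hsd17b7 and Nsdhl 8.79- and 8.23-fold. Srebf2, which encodes SREBP2, fell 2.39-fold and was named after its value was seen. Against untreated cells the list's median was 0.36 after shCon EVs and -1.65 after CrOE EVs. The sterol element TCACCCCAC was found before 1 of 16 of these genes with a promoter (6.25%), Hmgcs1, against 0.555% of all genes and 0.496% of all promoters.

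Of 16 fatty acid genes tested, 13 were lower (81.2%, beside 36.1% of all genes) and none higher, with a median log2 fold change of -1.31. Scd1, the stearoyl-CoA desaturase, was at 973, 957 and 963 CPM after shCon EVs and 130.1, 144 and 137 CPM after CrOE EVs. Acss2, which makes cytosolic acetyl-CoA from acetate, was at 156, 167 and 184 CPM after shCon EVs and 2.73, 3.08 and 3.48 CPM after CrOE EVs, 54.3-fold lower, the largest fall of the list. Fasn, the fatty acid synthase, fell 2.10-fold, from 1574 ± 22.7 to 750.3 ± 11.8 CPM. Scd2, among the 5 most abundant genes that fell, went from 2915 ± 39.9 to 1021 ± 45.4 CPM. Srebf1, which encodes the other SREBP, was at 70.6, 78.1 and 78.3 and 68.4, 74.9 and 72.5 CPM and was no call (adjusted p = 0.476, edgeR).

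**Figure D3:**
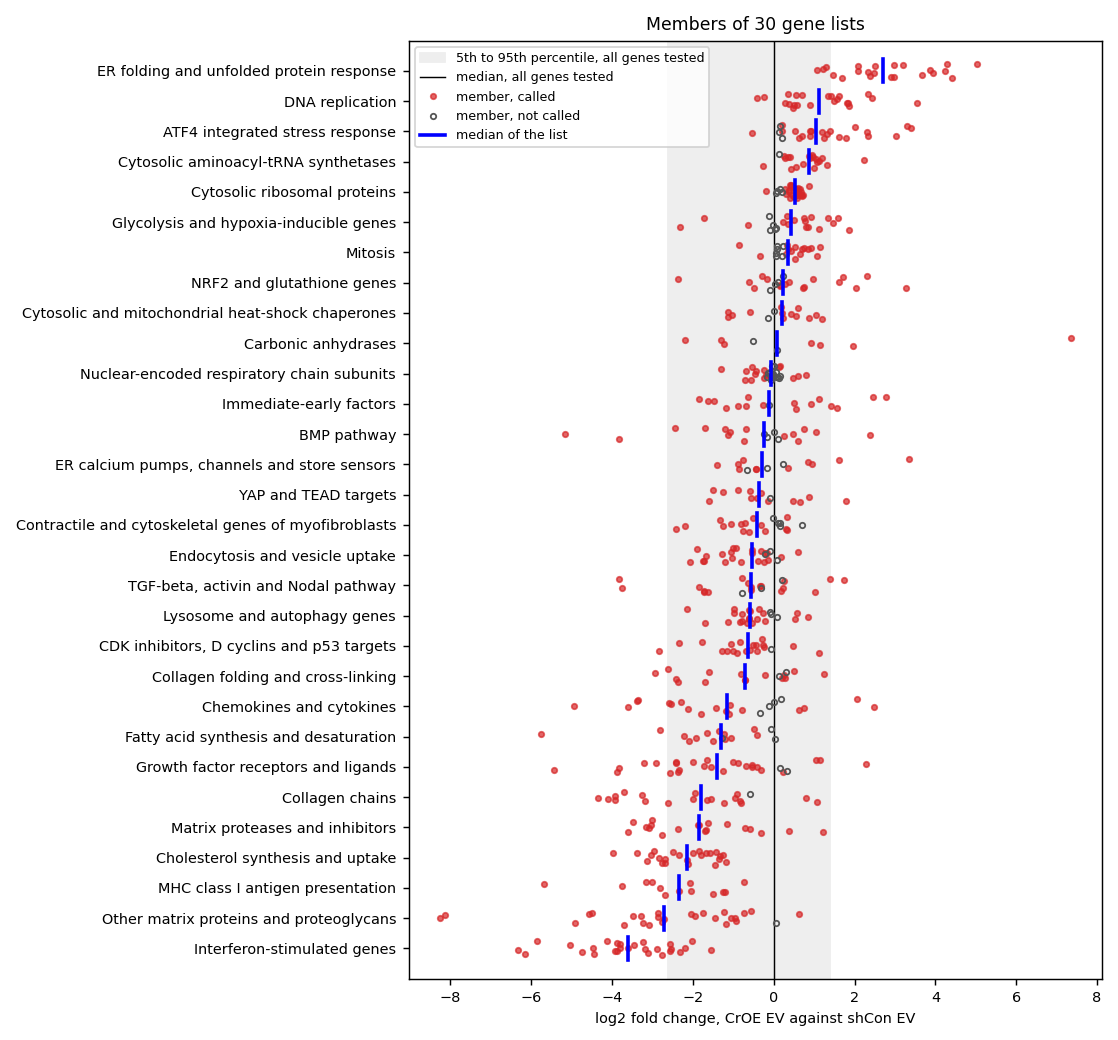
Log2 fold change of CrOE EV against shCon EV for the tested members of 30 gene lists, ordered by median (blue bar); red points are calls, open points are not, and the grey band spans the 5th to 95th percentile of all genes tested (-2.61 to 1.38). The ER folding list has its median above the band, the interferon-stimulated and other matrix lists have theirs below it, and the other 27 medians lie inside.

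Among growth factors and their receptors, 22 of 28 were lower (78.6%, beside 36.1% of all genes) and 4 higher, with a median log2 fold change of -1.41. Pdgfra, a PDGF receptor of fibroblasts, was at 643, 663 and 652 CPM after shCon EVs and 122, 128 and 113 CPM after CrOE EVs. Pdgfrb, its relative, was at 666, 705 and 698 CPM after shCon EVs and 168, 170.2 and 176 CPM after CrOE EVs. Of the ligands, Hgf went from 60.9 ± 1.11 to 4.12 ± 0.312 CPM, and Igf1 from 7.04 ± 0.956 to 0.156 ± 0.0361 CPM with 4, 5 and 7 counts after CrOE EVs. Hbegf, a ligand of the EGF receptor, rose from 2.37 ± 0.184 to 11.4 ± 0.721 CPM, while Egfr fell from 62.9 ± 1.43 to 8.28 ± 0.177 CPM; these 2 were named after their values were seen. The receptor Fgfr1 moved little, with a log2 fold change of -0.41.

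The TGF-beta, activin and Nodal list bears on CRIPTO, which is a co-receptor for Nodal and binds other ligands of the family. Of 21 genes tested 12 were lower and 6 higher (57.1% and 28.6%, beside 36.1% and 36.5% of all genes), with a median log2 fold change of -0.56, so both directions were present. Nodal, Gdf3, Lefty1 and Lefty2 were too low to be tested. Of the ligands, Tgfb1 was at 82.01, 80.2 and 84.1 CPM after shCon EVs and 25.2, 24.8 and 24.1 CPM after CrOE EVs, 3.32-fold lower. Inhbb, a subunit of activin B, was at 63.7, 63.5 and 62.6 CPM after shCon EVs and 4.34, 4.65 and 4.24 CPM after CrOE EVs, 14.3-fold lower (log2 fold change -3.84, SE 0.071, adjusted p = 2.4e-13, edgeR). Fst, the activin antagonist follistatin, was at 57.4, 55.01 and 55.5 CPM after shCon EVs and 3.996, 3.78 and 4.61 CPM after CrOE EVs, 13.5-fold lower. Inhbb and Fst were thus both lower in every CrOE EV library. Inhba, another activin subunit gene of the list, is not reported here. The type I receptor Acvr1b, through which Nodal and activin signal, fell by 0.79 on the log2 scale. Smad7, an inhibitor that TGF-beta itself induces, rose from 7.26 ± 0.162 to 24.2 ± 1.07 CPM.

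In the BMP list, 9 of 19 genes were lower and 6 higher (47.4% and 31.6%, beside 36.1% and 36.5% of all genes), with a median log2 fold change of -0.25. Grem1, an abundant BMP antagonist of these cells, was at 1244, 1272 and 1219 and 1226, 1279 and 1274 CPM and was no call (adjusted p = 0.88, edgeR). The ligand Bmp4 fell from 5.76 ± 0.221 to 1.06 ± 0.353 CPM, and Id1, a target of BMP signalling, rose 1.51-fold.

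Chemokines and cytokines were lower in 14 of 22 cases (63.6%, beside 36.1% of all genes) and higher in 4. Cxcl12, the stromal chemokine that binds CXCR4, was at 1051, 1026 and 1022 CPM after shCon EVs and 92.4, 103 and 109 CPM after CrOE EVs. Ccl8, a monocyte chemokine, was at 71.2, 66.5 and 69.6 CPM after shCon EVs and 2.32, 2.44 and 1.97 CPM after CrOE EVs, 30.8-fold lower, and Cxcl5, a neutrophil chemokine, was 5.99-fold lower. Il6 was at 4.26, 4.15 and 4.32 CPM after shCon EVs and 4.28, 5.12 and 4.97 CPM after CrOE EVs and was no call (adjusted p = 0.303, edgeR), with overlapping libraries. Ptgs2, the inducible cyclo-oxygenase, rose from 78.8 ± 1.66 to 437 ± 1.20 CPM and was named after its value was seen. Ccl5 was no call (adjusted p = 0.236, edgeR), but it was one in a model of only these 2 groups, with an adjusted p of 0.0313.

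Of 22 DNA replication genes 20 were higher (90.9%, beside 36.5% of all genes) and 2 lower, 11 higher by at least 2-fold, with a median log2 fold change of 1.11. Mcm2, of the replicative helicase, was at 44.4, 43.7 and 44.2 CPM after shCon EVs and 148, 165 and 158 CPM after CrOE EVs (log2 fold change 1.83, SE 0.064, adjusted p = 4.4e-11, edgeR). Mcm7 was at 31.8, 36.95 and 37.5 CPM after shCon EVs and 189, 191 and 191 CPM after CrOE EVs, and Cdc6, which loads the helicase, went from 0.784 ± 0.251 to 9.20 ± 0.545 CPM. In Mcm7, 26.8% of the 31-base stretches occur in another gene and exons overlap opposite-strand genes, so its counts are uncertain. Mcm2 was at 64.3 ± 4.19 CPM and Cdc6 at 4.76 ± 0.380 CPM in untreated cells, between the levels of the EV groups. For the whole list the median against untreated cells was -1.12 after shCon EVs and -0.24 after CrOE EVs.

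Mitosis genes were higher in 13 of 21 cases (61.9%, beside 36.5% of all genes) and lower in 2, with a median log2 fold change of 0.34. Mki67, a marker of cycling cells, was at 23.5, 25.5 and 23.9 CPM after shCon EVs and 28.3, 25.5 and 21.9 CPM after CrOE EVs, and was no call (adjusted p = 0.708, edgeR). Both EV groups were under the untreated cells, in which Mki67 was at 88.9 ± 14.5 CPM. The list's median against untreated cells was -1.81 after shCon EVs and -1.39 after CrOE EVs. Ccnb1, the mitotic cyclin B1, went from 15.9 ± 1.16 to 25.6 ± 1.32 CPM. Ccnd1, the cyclin D1 of growth factor response, was at 97.7, 98.97 and 107 CPM after shCon EVs and 13.1, 15.4 and 13.6 CPM after CrOE EVs, 7.19-fold lower. Its list of CDK inhibitors, D cyclins and p53 targets had 17 of 20 genes lower (85%, beside 36.1% of all genes) and 2 higher, at a median log2 fold change of -0.64. Cdkn1a, which encodes the inhibitor p21, went from 369 ± 3.60 to 206 ± 9.94 CPM. Myc, a growth-promoting transcription factor, was at 31.99, 35.2 and 35.9 CPM after shCon EVs and 219.5, 245 and 242 CPM after CrOE EVs, 6.85-fold higher. Myc belongs to the immediate-early list of 17 genes. Of these, 8 were higher and 8 lower (47.1% each way, beside 36.5% and 36.1% of all genes). Egr1 fell by 0.64 on the log2 scale and Ier3, which answers to stress, rose by 2.45.

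The NRF2 and glutathione list had 12 of 21 genes higher (57.1%, beside 36.5% of all genes) and 5 lower, at a median log2 fold change of 0.24. Within it, Hmox1, the haem oxygenase, rose from 339 ± 11.1 to 1045 ± 52.95 CPM and Gsta4, a glutathione transferase, was at 18.2, 18.1 and 18.8 CPM after shCon EVs and 182, 184 and 166 CPM after CrOE EVs, but Gstm1, of another transferase class, fell by 2.38 on the log2 scale. Glycolysis and hypoxia-inducible genes were higher in 14 of 22 cases (63.6%, beside 36.5% of all genes) and lower in 3 (median 0.42). Slc2a1, the glucose transporter GLUT1, went from 77.5 ± 4.03 to 283 ± 9.34 CPM. Respiratory chain genes were lower in 10 of 30 cases and higher in 5 (median -0.06), shares under those of all genes tested. YAP and TEAD targets were lower in 9 of 14 cases (64.3%, beside 36.1% of all genes) and higher in 4 (median -0.36). Those higher included the list's key members Ankrd1, Ctgf and Cyr61, which rose by 1.79, 0.86 and 0.64 on the log2 scale. Lysosome and autophagy genes were lower in 18 of 24 cases (75%, beside 36.1% of all genes) and higher in 3 (median -0.60). Lamp1, a lysosomal membrane protein, fell from 2686 ± 19.1 to 1369 ± 49.97 CPM. Sqstm1, the autophagy receptor p62, rose from 1659 ± 18.5 to 2986 ± 157 CPM.

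Genes of endocytosis and vesicle uptake were lower in 20 of 25 cases (80%, beside 36.1% of all genes) and higher in 2, with a median log2 fold change of -0.55. Cav1, the coat protein of caveolae, was at 194, 186 and 185 CPM after shCon EVs and 56.5, 55.6 and 57.1 CPM after CrOE EVs, 3.34-fold lower. Lrp1, a large endocytic receptor, was at 1828, 1853 and 1596 CPM after shCon EVs and 473, 428 and 349.6 CPM after CrOE EVs, 4.22-fold lower. Cltc, the clathrin heavy chain, fell only 1.30-fold, and Cd44, the hyaluronan receptor, rose 1.12-fold. Uptake of EVs itself was not measured.

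**Figure D4:**
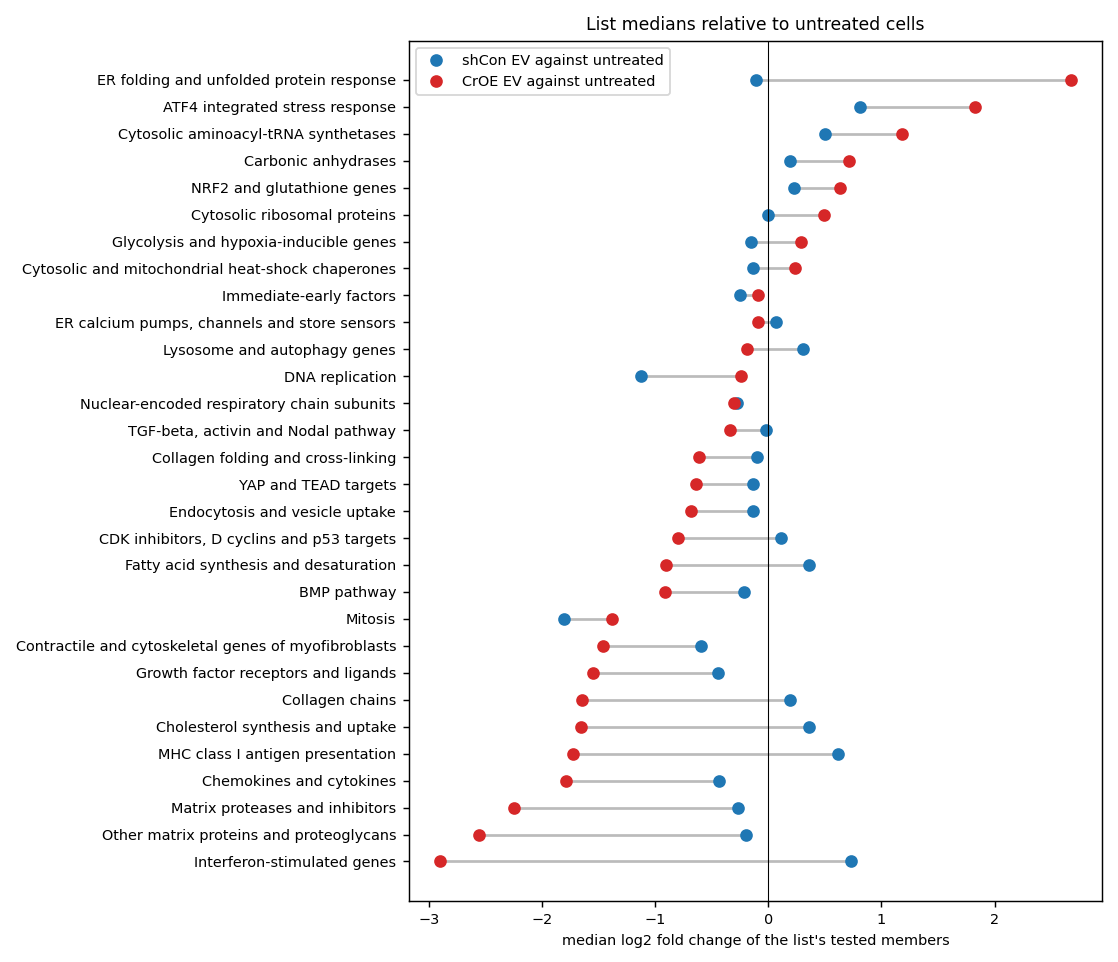
Median log2 fold change against untreated cells of the tested members of 30 lists, after shCon EVs (blue) and after CrOE EVs (red), joined by a grey line; both use the same 3 untreated libraries. The longest lines are those of the interferon-stimulated list (0.73 and -2.90) and the ER folding list (-0.11 and 2.67).

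Markers of fibroblasts and of other cell types were read beside these groups. Of 12 fibroblast markers tested 11 were lower (91.7%, beside 36.1% of all genes) and 1 higher after CrOE EVs, at a median log2 fold change of -1.98, with a summed level of 18290 to 18480 CPM after shCon EVs and 5102 to 5287 CPM after CrOE EVs. Fap was too low to test in every group, so the label of a fibroblast line rests on the others. Of 9 macrophage and leukocyte markers 5 were tested and 4 were lower (80%, beside 36.1% of all genes). Lyz2, a lysozyme, made up most of that, at 84.7, 75.7 and 73.4 CPM after shCon EVs and 1.40, 1.22 and 1.12 CPM after CrOE EVs, and the list's sum was 123 to 134 and 32.6 to 38.3 CPM. Ptprc, the defining leukocyte gene, was at 0.130 ± 0.105 and 0.110 ± 0.0503 CPM. Of 12 epithelial markers 3 were tested and 2 were higher (66.7%, beside 36.5% of all genes). Cldn4 was at 1.27, 1.16 and 1.01 CPM after CrOE EVs against 1, 0 and 0 counts after shCon EVs, at least 10.9-fold higher. Krt19 rose from 0.294 ± 0.122 to 0.621 ± 0.138 CPM. Epcam was at 0 in all 6 libraries, and the list's sum was 1.11 to 1.62 and 3.08 to 3.87 CPM. Of 6 endothelial markers 3 were tested and 2 were higher (66.7%, beside 36.5% of all genes). Their sums were 1.18 to 1.33 and 2.25 to 2.56 CPM, with Cldn5 at 0 in all 6 libraries. Of 7 adipocyte markers 4 were tested and 3 were lower (75%, beside 36.1% of all genes), with sums of 153 to 155 and 13.7 to 14.6 CPM. Lpl, a lipase, went from 131 ± 0.819 to 5.92 ± 0.537 CPM. The part of these markers in the results above was not tested.

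The largest falls under the naming rule below, in genes whose log2 CPM averaged 3 or more, lay mostly outside the lists. Gdpd2, a glycerophosphodiester phosphodiesterase, was at 22.8, 22.05 and 24.2 CPM after shCon EVs and at the floor after CrOE EVs with 2, 2 and 1 counts, at least 259-fold lower. Hp, the haemoglobin-binding protein haptoglobin, was at 126, 122 and 124 CPM after shCon EVs and 0.571, 0.640 and 0.758 CPM after CrOE EVs. Apod, a lipocalin, was at 113, 123 and 115 CPM after shCon EVs and 0.603, 0.873 and 0.870 CPM after CrOE EVs. In both genes every CrOE EV library was under 1 CPM. Islr was at 11.5, 11.5 and 11.7 CPM and then at the floor, at least 130.1-fold lower. Mpeg1, a pore-forming protein of phagocytes, was 114-fold lower, Sorbs2, a cytoskeletal adaptor, 98.4-fold and Col23a1, a transmembrane collagen, 75.9-fold. Exons of Gdpd2, Prelp and Sorbs2 overlap genes on the opposite strand.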

How the data were processed

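Bulk poly(A) RNA of 12 libraries (4 groups of 3) was analysed, of which 6 are compared here. The values deposited by the authors are estimated counts for each gene symbol in 1 table, not scaled between libraries; 39.8% of the values are not whole numbers. Per the submitters' processing notes, featureCounts and the build mm39 were used, with no version, and how it gave fractions and whether it used strand are not given in the sources used here. Of 32544 rows, 27 had symbols turned into dates, and none of these is named. The deposited estimated counts were rounded to whole numbers; the design had assumed raw counts, and the same test was kept.

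Genes were filtered by filterByExpr (14279 kept), scaled by TMM and tested with edgeR 4.0.16 (R 4.3.3), quasi-likelihood F-test, in 1 model of the 4 group means (8 residual degrees of freedom, biological coefficient of variation 8.9%). P-values were adjusted by Benjamini-Hochberg over all genes tested, and an adjusted p under 0.05 was a call. SEs were derived from the F statistic. A group with at most 3 counts in each library was at the detection floor, and folds against it are lower bounds at that floor, for counting error only.

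Genes are named as the 12 largest rises and 12 largest falls among called genes whose log2 CPM averaged 3 or more, no overlap of the libraries compared and a symbol that is not a Gm or Rik number. Further named genes are the key members and the 4 largest called changes of each of 30 pathway and 5 marker lists, Tdgf1, and the 5 most abundant genes changed at least 2-fold in each direction. Genes outside this rule are said to be picked after their values were seen. The comparison, the lists and the rule were chosen with earlier results of these data known. Promoters came from RefSeq (GRCm38.p6), searched in the 250 bases before each start. Exon overlaps and shared 31-base stretches came from GENCODE M21, which held 223 of the 225 named genes. Of these, 57 overlap exons on the opposite strand and 25 share at least 20% of their stretches with another gene. The cautions given with single genes cover only some of them. Ccnb1 (27.7%), Gstm1 (28.8%), Lyz2 (32.8%) and Bnip3 (20.3%) also pass that share, so their counts are uncertain. Alternatives were other size factors, DESeq2 1.42.0, other filters, a replicate block, a model of 2 groups, a fold of at least 2 and each library left out. The results of some genes of the lists are not reported here; the list counts, medians and sums include them.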

Additional observations from a re-analysis of the deposited data

How the results depend on the processing

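The 3 counts of genes called between CrOE and shCon EVs, and the counts against untreated cells, stayed within 1.5 times under every alternative but a required fold of at least 2. That gave 3884 genes in all, 1329 higher and 2555 lower, with 4245 for CrOE EVs and 863 for shCon EVs against untreated cells. DESeq2 called 10261 genes between CrOE and shCon EVs, other size factors 10367, no filter 10538, at least 10 counts in every library 9281, a model of only the 2 groups 11042, and leaving out 1 library 9750 to 9897. With at least 10 counts in every library, 1 collagen gene, 3 ER calcium genes and 1 carbonic anhydrase were called higher, from fewer genes tested. The model of only the 2 groups called 5 glycolysis genes lower; the cause was not tested. Leaving out 1 library in turn gave 0 ribosomal genes lower, 1 to 2 collagen genes higher and 1 to 2 endocytosis genes higher. Of 223 named genes with a value, none changed direction where it was a call in the main fit or in the alternative. A change of sign in a gene that was a call in neither was not counted. Of the 16 settings, the required fold and the untreated libraries left out gave no such values for single genes. Calls were lost for Ryr3 with DESeq2 (adjusted p = 0.0613), for Rpl3 with the stricter filter (0.0545) and for Rpl3, Cd44 and Krt19 when some single libraries were left out (at most 0.104). Cnn1 was a call without CrOE EV replicate 1 (log2 fold change 0.98, adjusted p = 0.0303). The replicate number as a block gave 10511 genes (5297 higher and 5214 lower), and 10657 and 5691 for CrOE and shCon EVs against untreated cells. Deviations of same-numbered CrOE and shCon EV libraries correlated at 0.0147 to 0.046, and 1 of the 3 CrOE EV libraries correlated best with its own number. With 3 libraries a group, these values cannot show whether libraries of the same number share a batch. The labels do not say what the number stands for, and the libraries were not treated as paired. Genes with few counts after CrOE EVs, such as Psmb9, Prelp and Igf1, are limited by depth in the size of their fall, not in its direction.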

Other observations

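Further members of the pathway and marker lists are given here with their values. Ankrd1, a YAP target, was at 22.6, 25.8 and 26.4 CPM after shCon EVs and 77.2, 87.4 and 94.7 CPM after CrOE EVs, while Axl, a receptor kinase of the same list, was at 813, 846 and 849.9 CPM after shCon EVs and 267, 287 and 278 CPM after CrOE EVs. The 2 thus changed in opposite directions. Adm, the hypoxia-inducible peptide adrenomedullin, fell from 24.2 ± 1.86 to 4.82 ± 0.692 CPM (SD, n = 3), and Bnip3, another hypoxia-inducible gene, rose from 49.4 ± 1.63 to 136 ± 6.32 CPM. Ctsk, the collagen-cutting cathepsin, fell from 24.2 ± 1.19 to 5.42 ± 0.347 CPM, and Tfeb, a transcription factor of lysosomal genes, from 7.04 ± 0.548 to 2.17 ± 0.104 CPM. Tek, an endothelial receptor, rose from 0.175 ± 0.109 to 1.18 ± 0.0345 CPM.

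Hspd1 and Hspe1, which encode mitochondrial chaperonins, are read from opposite strands of a shared promoter. It holds the heat-shock element, searched as GAA, any 2 bases, TTC, any 2 bases, GAA on both strands, which 2 of 11 heat-shock genes with a promoter held (18.2%), against 0.514% of all genes and 0.466% of all promoters. Capitals mark the 2 overlapping matches.
Hspd1 (chr1:55088039-55088096, - strand): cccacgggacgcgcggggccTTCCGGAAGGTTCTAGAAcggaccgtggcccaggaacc
Hspe1, named for this promoter, rose from 71.8 ± 4.45 to 148 ± 9.99 CPM, and Hspd1 rose 2.28-fold, while Hspa1a, with no match in the window, fell 2.18-fold. No cause was tested.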
